A study of Mus musculus with 12 samples.

Results

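This account follows 45 genes for peroxisomal enzymes, membrane transporters and peroxins, the proteins that build the peroxisome, in fasted mouse livers of 3 genotypes. The members were the rows whose gene name stood in a fixed list of these genes, and all 45 were found among the 56748 genes of the count table. They were divided by their known work into 10 roles.

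Peroxisomes are small organelles bounded by a single membrane that shorten very long-chain and branched-chain fatty acids, make bile acid and ether lipid intermediates, and oxidize substrates such as glycolate, urate and pipecolate with release of hydrogen peroxide, which catalase removes. Their matrix enzymes are made in the cytosol and imported by peroxins, which also insert membrane proteins and divide the organelle. In rodent liver, many genes of peroxisomal fatty acid oxidation are known targets of the fatty acid-activated receptor PPARα, encoded by Ppara.

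RNA-seq of whole liver was made from 12 mice fasted for 24 h, 4 per genotype. The study asked which genes differ when the stress-induced transcription factor gene Atf3 is deleted along with Cpt2, the gene for carnitine palmitoyltransferase 2, which lets long-chain fatty acids enter mitochondrial oxidation. In the single knockout (SKO) livers Cpt2 was deleted in a liver-specific way, and in the double knockout (DKO) livers both Atf3 and Cpt2 were deleted. Deletion rested on crosses of floxed lines to an Albumin-Cre transgene, so the Albumin promoter, active in hepatocytes, drove Cre. Whether other liver cells kept the genes was not measured. The controls (WT) were described as triple floxed for Cpt1a, Cpt1b and Cpt2, a label that names no Atf3 allele, whereas the study's text describes floxed controls of the Atf3 and Cpt2 line for its double knockout. Which line the sequenced controls came from is not settled by these sources, and this holds for each comparison with WT. The labels gave no age, sex, litter or batch, and the study described the sequenced mice as male.

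Livers were counted at 14710304 to 20030055 reads in genes, with a median of 17908507. At this depth a count of 0 allows up to 3 counts, or 0.145 to 0.195 counts per 1e6 counts (CPM) by liver, for counting error only. Cpt2 stood at 199 to 250.4 CPM in WT, 109 to 159 CPM in SKO and 99.9 to 125 CPM in DKO livers, without overlap between WT and either knockout. Atf3 had 17 to 39 counts in WT and 259 to 1056 in SKO livers. DKO replicates 1, 2 and 3 had 164, 177 and 265 Atf3 counts and DKO replicate 4 had 5. These counts cover the whole gene, so they also hold reads from exons that a deletion may leave, and they do not check the Atf3 deletion. SKO replicate 3 and DKO replicate 4 had 18063 and 20855 counts of Xist, the RNA of the inactive X chromosome, with 2 and 0 counts of Y-linked genes. The other 10 livers had at most 19 Xist counts and 2741 to 4294 Y-linked counts. By these counts SKO replicate 3 and DKO replicate 4 read as female, although the study described the sequenced mice as male. They are called the livers with Xist counts below. Nothing in the labels ties replicates to separate litters or days, so p-values measure the spread between these livers.

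DKO replicate 4 also stood apart in the peroxisomal genes, and DKO results that depend on it are given without it too. The 45 genes together took 1.86% to 2.08% of all counts in the WT livers and 3.42% to 4.16% in the SKO livers. In DKO replicates 1, 2 and 3 they took 3.10%, 3.52% and 3.31%, and in DKO replicate 4 1.74%. In DKO replicate 4, 19 of the 45 genes lay inside the range of the 4 WT livers, against 6, 7 and 10 of 45 in DKO replicates 1, 2 and 3.

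Cell type markers were summed in each liver. The summed level of 10 hepatocyte markers was 91831 to 112530 CPM in WT, 51486 to 84108 CPM in SKO, 52530 to 64469 CPM in DKO replicates 1 to 3 and 113110 CPM in DKO replicate 4. By edgeR 6 of the 10 were lower in SKO against WT and 1 in DKO against WT, or 7 without DKO replicate 4. Summed macrophage markers were 159 to 308 CPM in WT, 165 to 353 CPM in SKO, 106 to 152 CPM in DKO replicates 1 to 3 and 339 CPM in DKO replicate 4, so that SKO and WT livers overlapped. Of these 8 markers 1 was higher in SKO against WT (median log2 fold change 0.0095), and 1 was lower in DKO against WT, or 6 lower and 1 higher without DKO replicate 4. Cholangiocyte markers summed to 27.9 to 33.3 CPM in WT, 7.41 to 14.4 CPM in SKO, 9.60 to 18.7 CPM in DKO replicates 1 to 3 and 31.1 CPM in DKO replicate 4. No marker on any of these 3 lists was called in DKO against SKO. No marker on these 3 lists was at 0 in all livers. Their part in the differences given here was not tested, and in bulk liver fewer cells of a type and less RNA per cell cannot be told apart.

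Per gene length, in the deposited FPKM (fragments per kilobase of gene per 1e6 mapped), the most abundant members over all 12 livers were Acaa1b, Ehhadh and Scp2. Acaa1b encodes a peroxisomal thiolase, the last step of the oxidation cycle, Ehhadh the bifunctional hydratase and dehydrogenase of the middle steps, and Scp2 a thiolase and sterol carrier for branched chains and bile acid intermediates. In WT livers the order was different. Phyh, the phytanoyl-CoA hydroxylase that starts α-oxidation, was at 1187 ± 79.3 FPKM (SD, n = 4), Scp2 at 1138 ± 87.5, and catalase (Cat) at 1129 ± 89.3. These 3 levels lay within each other's spread. Acaa1b at 855 ± 181 FPKM, Ephx2 at 600 ± 39.2 and Ehhadh at 573 ± 179.8 came next, and Ephx2, the soluble epoxide hydrolase, and Ehhadh again did not differ beyond their spread. In the SKO livers Acaa1b at 3977 ± 755 FPKM and Ehhadh at 3760.1 ± 499 led, above Scp2 at 1205 ± 266. The lowest member in every genotype was Far1, a fatty acyl-CoA reductase of ether lipid synthesis, at a mean of 0.369 FPKM over the 12 livers.

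**Figure D1:**
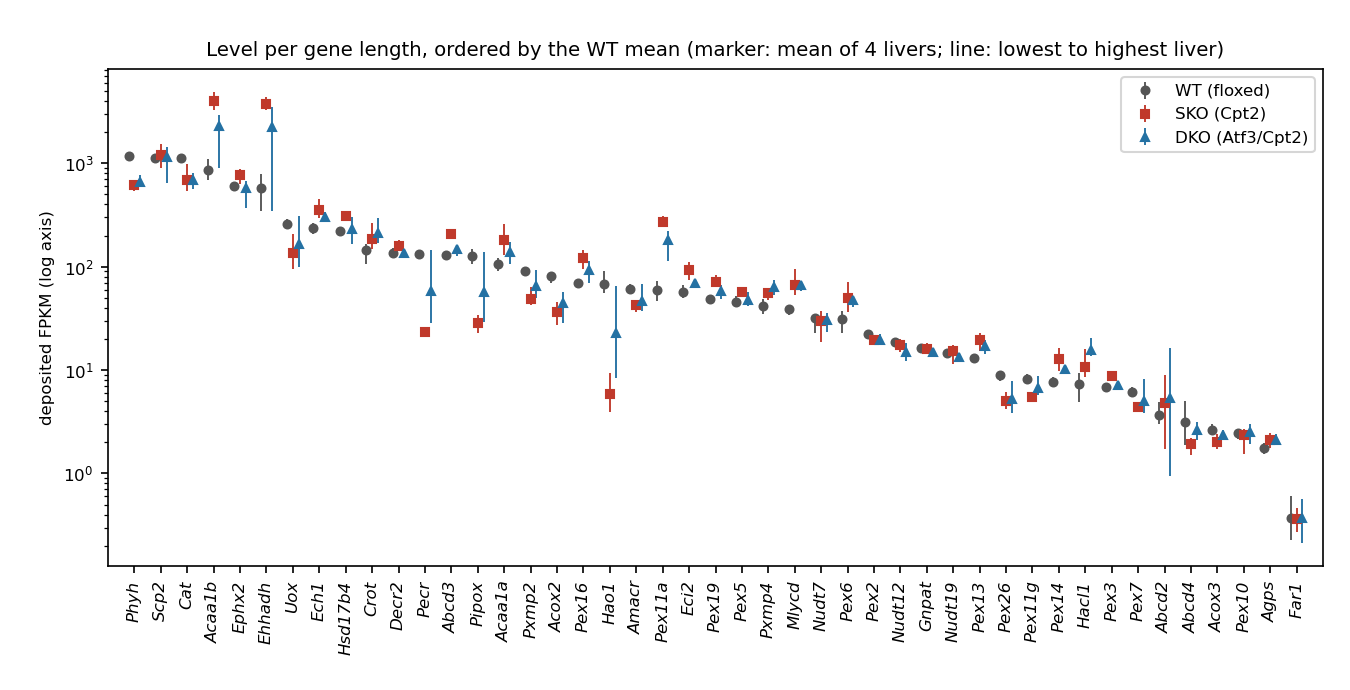
Deposited FPKM of the 45 genes on a log axis, ordered by the WT mean; markers are means of 4 livers (circles WT, squares SKO, triangles DKO) and lines run from the lowest to the highest liver. Acaa1b, Ehhadh and Pex11a stand higher in SKO than in WT, Pecr, Pipox and Hao1 stand lower, and in all 6 genes DKO replicate 4 is the end of the DKO line nearest to WT or past it.

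The SKO livers were compared with WT livers to see which genes answer to the loss of Cpt2 under fasting. By edgeR's quasi-likelihood test over 14261 genes at a Benjamini-Hochberg adjusted p under 0.05, 16 of the 45 members were higher and 13 were lower in SKO livers, and 16 were not called. DESeq2 called 18 higher and 14 lower, against 16.9% and 17.1% of all genes. "Called" refers to edgeR unless DESeq2 is named. Over all genes tested 16.7% were called higher and 15.4% lower. The 4 SKO livers lay wholly above the 4 WT livers for 15 members and wholly below for 12, against 17.2% and 16.1% of all genes. At an unadjusted p under 0.05 the counts were 19 and 14, against 22% and 20% of all genes. The median log2 fold change was 0.24 over the members and 0.03 over all genes, and the median size regardless of direction was 0.57 against 0.37. The bifunctional enzymes, the thiolases Acaa1a and Acaa1b and 7 of the 10 called peroxins were higher, whereas Acox2, Acox3, Phyh, Amacr, Pecr and 4 of the 5 matrix enzymes were lower.

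Among the 7 enzymes of the β-oxidation cycle, 4 were higher and 2 were lower in SKO livers. Ehhadh was at 1702, 2232, 973 and 1629 CPM in WT replicates 1 to 4 and at 12711, 11229, 9459 and 10042 CPM in SKO replicates 1 to 4. The groups did not overlap, and the log2 fold change was 2.73 ± 0.24 (SE, edgeR adjusted p = 1.37e-05), a 6.64-fold higher level. Acaa1b was at 1292, 1664, 1404 and 2051 CPM in WT livers and 8016, 9322, 6277 and 6609.5 CPM in SKO livers. The lowest SKO liver was again well above the highest WT liver (log2 fold change 2.24 ± 0.20, adjusted p = 1.42e-05, edgeR). Its paralog Acaa1a, also a thiolase, rose by 0.79 ± 0.19, adjusted p = 0.00861 (edgeR), and Hsd17b4, the other bifunctional enzyme, by 0.50 ± 0.13, adjusted p = 0.0119, a call lost without WT replicate 1 (adjusted p = 0.0545) and with all 12 livers in 1 fit (0.0614).

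Acox2 and Acox3, the oxidases that open the cycle for bile acid intermediates and branched chains, went the other way. Acox2 was at 245, 318, 316 and 282 CPM in WT and 114, 96.4, 164 and 148 CPM in SKO livers, with no overlap (log2 fold change -1.15 ± 0.17, adjusted p = 0.000423, edgeR). Acox3 was low throughout, at 29.3 ± 3.08 CPM in WT and 22.5 ± 3.16 CPM in SKO livers (SD, n = 4), and its call was near the threshold (log2 fold change -0.38 ± 0.14, adjusted p = 0.049, edgeR). The Acox3 call was lost in 6 of the 8 fits that left out a liver (adjusted p 0.0706 to 0.142) and held without WT replicate 3 or SKO replicate 1. It was also lost without the filter on low counts (edgeR adjusted p = 0.127). Scp2, the third most abundant member, was at 3382, 3834, 4031 and 3892 CPM in WT and 3916, 4086, 3014 and 5239 CPM in SKO livers. SKO replicate 3 lay below and SKO replicates 2 and 4 above every WT liver, and no difference was detected (log2 fold change 0.10 ± 0.17, adjusted p = 0.708, edgeR).

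The thiolase pair is uncertain as to its split. The longest protein-coding transcripts of Acaa1a and Acaa1b were 95.3% identical over 1477 aligned columns, with a longest identical run of 327 bases, and reads from such stretches could be given to either gene. Acaa1b took 75.6% to 80.2% of the counts of the pair in WT livers and 89.5% to 92.2% in SKO livers. In DKO replicates 1 to 3 its share was 88.2% to 89.8%, and in DKO replicate 4 78.9%.

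**Figure D2:**
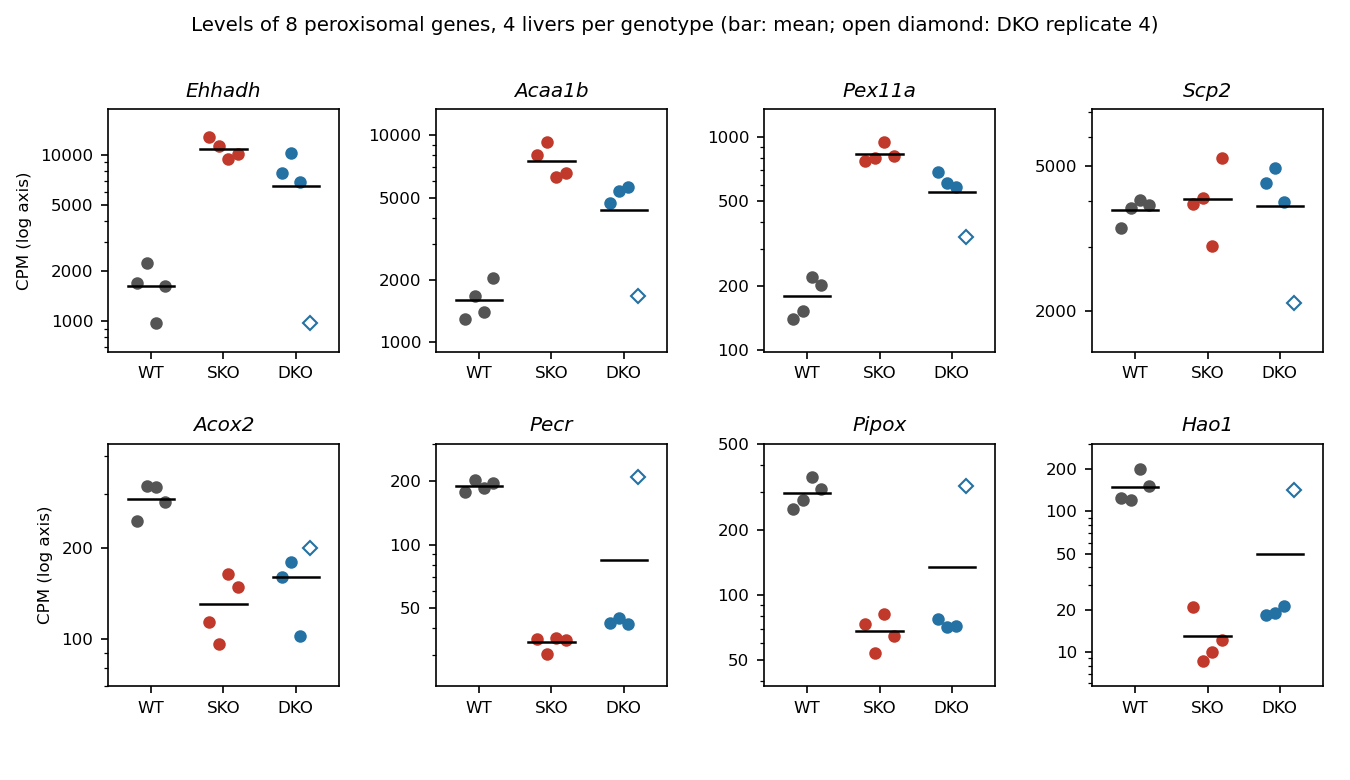
Levels of 8 peroxisomal genes in CPM on log axes, each point a liver, bars the mean of 4 livers per genotype and the open diamond DKO replicate 4. Ehhadh, Acaa1b and Pex11a are higher in all SKO livers than in all WT livers and Acox2, Pecr, Pipox and Hao1 lower, while DKO replicate 4 lies among the WT livers for Acaa1b, Pipox and Hao1 and just outside them for Ehhadh and Pecr.

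The 3 auxiliary enzymes for unsaturated chains were all at higher mean levels in SKO livers, and 2 were called. Eci2, an enoyl-CoA isomerase, rose by 0.69 ± 0.16, adjusted p = 0.00721 (log2 fold change ± SE, edgeR), and Ech1, a dienoyl-CoA isomerase, by 0.59 ± 0.16, adjusted p = 0.0151. The Ech1 call was lost without WT replicate 1 (adjusted p = 0.0585, edgeR). Decr2, the peroxisomal dienoyl-CoA reductase, had a log2 fold change of 0.24 ± 0.12, adjusted p = 0.176.

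Of the 4 genes of α-oxidation and branched-chain handling, 3 fell in SKO livers. Pecr, a trans-2-enoyl-CoA reductase that also acts on the phytol pathway, had the smallest p of all members. It was at 179, 203, 185 and 196 CPM in WT livers and at 35.8, 30.3, 35.9 and 35.4 CPM in SKO livers. The SKO livers lay close together and far below WT, and the log2 fold change was -2.48 ± 0.12, adjusted p = 2.88e-07 (edgeR), a 5.57-fold lower level. Phyh fell from 2148 ± 137 CPM to 1128 ± 98.2 CPM (SD, n = 4; log2 fold change -0.93 ± 0.13, adjusted p = 0.000287, edgeR), and Amacr, the racemase for branched acyl-CoAs, by 0.52 (adjusted p = 0.00717).

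Hacl1, the lyase that follows Phyh in α-oxidation, was the exception. It was at 23.2, 29.9, 43.9 and 41.3 CPM in WT and 43.2, 40.8, 44.8 and 77.4 CPM in SKO livers, and the groups overlapped (log2 fold change 0.57 ± 0.24, adjusted p = 0.0904, edgeR). Hacl1 overlaps Btd on the opposite strand, whose mean level was 161% of that of Hacl1, and strandedness of the counting is not given in the sources used here. Btd, the biotinidase gene, was itself higher in SKO livers by 0.57 ± 0.12 (edgeR adjusted p = 0.00339), so the Hacl1 counts are uncertain.

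The largest decrease of all members was in a matrix oxidase. Hao1, the glycolate oxidase whose product glyoxylate is a source of oxalate, was at 124, 121, 199 and 150.4 CPM in WT and at 21, 8.65, 9.98 and 12.1 CPM in SKO livers. No SKO liver came near the WT range, and the log2 fold change was -3.53 ± 0.28, adjusted p = 7.1e-06 (edgeR), an 11.6-fold lower level. Pipox, the pipecolate and sarcosine oxidase, was at 251, 277, 351 and 309.6 CPM in WT and 73.3, 53.9, 81.8 and 64.6 CPM in SKO livers. It fell 4.35-fold without overlap (log2 fold change -2.12 ± 0.16, adjusted p = 5.41e-06, edgeR). Uox, the urate oxidase, fell by 0.91 on the log2 scale (edgeR adjusted p = 0.0103), a call lost with all 12 livers in 1 fit (0.0619), and Cat by 0.70 (adjusted p = 0.016). Ephx2 was not called by edgeR, with a log2 fold change of 0.36 ± 0.14, adjusted p = 0.0725, and was called higher by DESeq2 (0.34, adjusted p = 0.0408).

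The 7 promoter windows that follow belong to the members with the largest rises (Ehhadh, Acaa1b, Pex11a), the largest falls (Hao1, Pecr, Pipox) and the second thiolase gene, Acaa1a. They are the 250 bases before the annotated gene start, read from RefSeq on GRCm38.p6 and written 5′ to 3′ in the direction of the gene. Capitals mark the GC box GGGCGG and the CCAAT box CCAAT, each searched on both strands, so their reverse complements are capitalized too.
Ehhadh (ENSMUSG00000022853), chr16:21787835-21788084, minus strand: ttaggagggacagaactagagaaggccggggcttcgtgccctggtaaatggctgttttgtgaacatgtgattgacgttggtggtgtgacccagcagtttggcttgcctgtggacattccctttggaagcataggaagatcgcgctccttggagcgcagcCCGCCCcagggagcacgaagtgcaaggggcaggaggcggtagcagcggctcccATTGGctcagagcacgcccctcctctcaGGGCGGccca
Acaa1b (ENSMUSG00000010651), chr9:119157094-119157343, minus strand: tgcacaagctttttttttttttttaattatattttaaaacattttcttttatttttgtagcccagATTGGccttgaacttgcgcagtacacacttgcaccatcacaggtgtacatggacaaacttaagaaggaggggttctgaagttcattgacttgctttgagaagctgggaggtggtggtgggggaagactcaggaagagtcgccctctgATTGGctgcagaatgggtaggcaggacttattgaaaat
Acaa1a (ENSMUSG00000036138), chr9:119341044-119341293, plus strand: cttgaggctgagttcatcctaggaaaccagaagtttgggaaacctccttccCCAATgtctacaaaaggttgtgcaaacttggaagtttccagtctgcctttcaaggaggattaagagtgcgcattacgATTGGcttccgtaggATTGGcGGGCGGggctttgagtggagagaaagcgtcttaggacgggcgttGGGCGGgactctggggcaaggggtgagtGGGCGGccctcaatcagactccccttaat
Pex11a (ENSMUSG00000030545), chr7:79743132-79743381, minus strand: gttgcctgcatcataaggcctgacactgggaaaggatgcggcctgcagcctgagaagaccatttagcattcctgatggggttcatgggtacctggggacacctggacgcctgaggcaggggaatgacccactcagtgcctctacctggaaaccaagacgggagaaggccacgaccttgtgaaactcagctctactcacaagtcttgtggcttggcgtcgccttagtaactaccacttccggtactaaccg
Pecr (ENSMUSG00000026189), chr1:72284322-72284571, minus strand: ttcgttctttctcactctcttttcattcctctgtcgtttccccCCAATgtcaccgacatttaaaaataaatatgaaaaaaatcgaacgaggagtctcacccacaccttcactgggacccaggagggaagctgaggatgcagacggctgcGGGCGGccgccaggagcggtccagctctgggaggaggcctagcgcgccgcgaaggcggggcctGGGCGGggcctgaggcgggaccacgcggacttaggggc
Hao1 (ENSMUSG00000027261), chr2:134554353-134554602, minus strand: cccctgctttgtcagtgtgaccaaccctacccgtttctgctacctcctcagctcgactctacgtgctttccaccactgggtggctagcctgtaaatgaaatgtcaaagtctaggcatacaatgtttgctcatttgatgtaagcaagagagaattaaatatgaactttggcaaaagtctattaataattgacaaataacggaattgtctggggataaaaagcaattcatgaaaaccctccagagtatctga
Pipox (ENSMUSG00000017453), chr11:77893873-77894122, minus strand: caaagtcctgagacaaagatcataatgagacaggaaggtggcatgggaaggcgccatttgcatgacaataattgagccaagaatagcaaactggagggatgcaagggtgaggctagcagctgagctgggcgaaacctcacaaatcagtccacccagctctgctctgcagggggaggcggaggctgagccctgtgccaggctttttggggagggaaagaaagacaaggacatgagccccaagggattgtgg

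These windows differ in kind. Ehhadh held 2 GC boxes and 1 CCAAT box in a window of 60.4% G and C, and Pecr, which moved the opposite way, also held 2 GC boxes and 1 CCAAT box. Acaa1a held 3 of each, whereas Acaa1b held no GC box and 2 CCAAT boxes at 41.6% G and C. Pex11a, Hao1 and Pipox held none of either motif. Promoters of 36 of the 45 members were in the RefSeq table, with 42 windows, and Hsd17b4, Amacr, Abcd2, Abcd4, Pxmp2, Nudt12, Pex2, Pex19 and Ephx2 were not matched. The GC box was in 59.5% of the 42 member windows and in 32.7% of all 32851 windows, and the CCAAT box in 40.5% against 33.8%. All windows here include genes that did not pass the filter on counts. Median G and C was 57.2% in windows of members higher in SKO livers, 53.8% in those of lower members and 52.4% over all windows. The PPAR element AGGTCANAGGTCA, a direct repeat of AGGTCA with a base between the copies, was in none of the member windows and in 0.0335% of all windows. The looser form AGGNCANAGGNCA, which contains every match of the first, was likewise in none of them and in 0.338% of all. A match describes letters in a window and nothing about binding.

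The 5 membrane genes split as well, with 2 higher and 1 lower in SKO livers. Abcd3, the abundant half-transporter that brings acyl-CoAs into the peroxisome, was at 771, 863, 746 and 888 CPM in WT and 1308, 1199, 1484 and 1300.5 CPM in SKO livers. All SKO livers exceeded all WT livers (log2 fold change 0.69 ± 0.13, adjusted p = 0.0019, edgeR). Pxmp4, a membrane protein, rose by 0.43 ± 0.13, adjusted p = 0.0284 (edgeR), a call lost without WT replicate 1, 2 or 4 or SKO replicate 2 or 3 (adjusted p 0.0551 to 0.11) or with all 12 livers in 1 fit (0.0516), and Pxmp2, a channel of the peroxisomal membrane, fell by 0.89 (adjusted p = 0.000526). Abcd4, whose product is a family member known from lysosomal cobalamin export, was at 14.6, 21.5, 38.6 and 21 CPM in WT and 11.8, 16.9, 16.1 and 15.2 CPM in SKO livers. These values overlapped and Abcd4 was not called by edgeR (log2 fold change -0.67 ± 0.25, adjusted p = 0.0636), while DESeq2 called it lower (-0.70, adjusted p = 0.0308).

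Of the 5 genes for acyl export and coenzyme turnover, only Mlycd, the malonyl-CoA decarboxylase, was called in SKO against WT, at 109.7 ± 9.28 CPM in WT and 191 ± 54.3 CPM in SKO livers (SD, n = 4; log2 fold change 0.80 ± 0.18, adjusted p = 0.00521, edgeR). Crot, the octanoyltransferase that hands shortened chains to carnitine, had a log2 fold change of 0.37 ± 0.21, adjusted p = 0.204 (edgeR). The nudix hydrolases Nudt7, Nudt12 and Nudt19, which cleave coenzyme A or NADH, had log2 fold changes of -0.08, -0.08 and 0.10. The 3 ether lipid genes were also uncalled. Agps was at 0.27 ± 0.16, Gnpat, which overlaps another gene on the opposite strand with counts at 83% of its level, at -0.03 ± 0.11, and Far1 at 2.83 ± 1.33 CPM in WT and 2.85 ± 0.609 CPM in SKO livers.

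Among the 13 peroxins, 7 rose, 3 fell and 3 were not called in SKO livers by edgeR, and DESeq2 called 1 of those 3, Pex5. The largest change was in Pex11a, which drives elongation and division of peroxisomes. It was at 141, 154, 221 and 203 CPM in WT and at 773, 797, 948 and 815 CPM in SKO livers. The SKO livers formed a group far above WT, and the level was 4.63-fold higher (log2 fold change 2.21 ± 0.17, adjusted p = 5.46e-06, edgeR). The second division peroxin, Pex11g, fell by 0.54 (adjusted p = 0.00408), so the 2 division genes moved in opposite directions.

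All 3 membrane assembly peroxins rose. Pex16 had a log2 fold change of 0.81 ± 0.15, adjusted p = 0.00156 (edgeR), Pex19 of 0.56 ± 0.13, adjusted p = 0.00509 and Pex3 of 0.39 ± 0.11, adjusted p = 0.0177. The Pex3 call was lost without WT replicate 3 (adjusted p = 0.0658) or WT replicate 4 (0.0764), and Pex3 overlaps Adat2 on the opposite strand, which had 12.1% of its level.

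The 8 matrix import peroxins had 3 higher and 2 lower members. The docking genes Pex14 (0.73 ± 0.15, adjusted p = 0.00316, edgeR) and Pex13 (0.61 ± 0.14, adjusted p = 0.00609) rose together with Pex6 (0.68 ± 0.21, adjusted p = 0.0276), the ATPase that recycles the import receptor. Pex26, which anchors that ATPase, fell by 0.83 (adjusted p = 0.000914), and Pex7, the receptor for cargo such as Phyh, by 0.47 (adjusted p = 0.00714), a call lost with all 12 livers in 1 fit (0.106). The main receptor gene Pex5 lay wholly above WT in the SKO livers but was not called by edgeR (0.32 ± 0.12, adjusted p = 0.0526), while DESeq2 called it higher (0.30, adjusted p = 0.0398). The ubiquitin ligase genes Pex2 and Pex10 were at -0.16 ± 0.11 and -0.06 ± 0.20. Pex13 overlaps Pus10 on the opposite strand, at 37.6% of its level, and Pus10 was higher in SKO livers as well (0.38 ± 0.12, edgeR adjusted p = 0.0307). The Pex6 call was lost without WT replicate 1 (adjusted p = 0.0877), WT replicate 2 (0.0782) or SKO replicate 2 (0.0702).

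**Figure D3:**
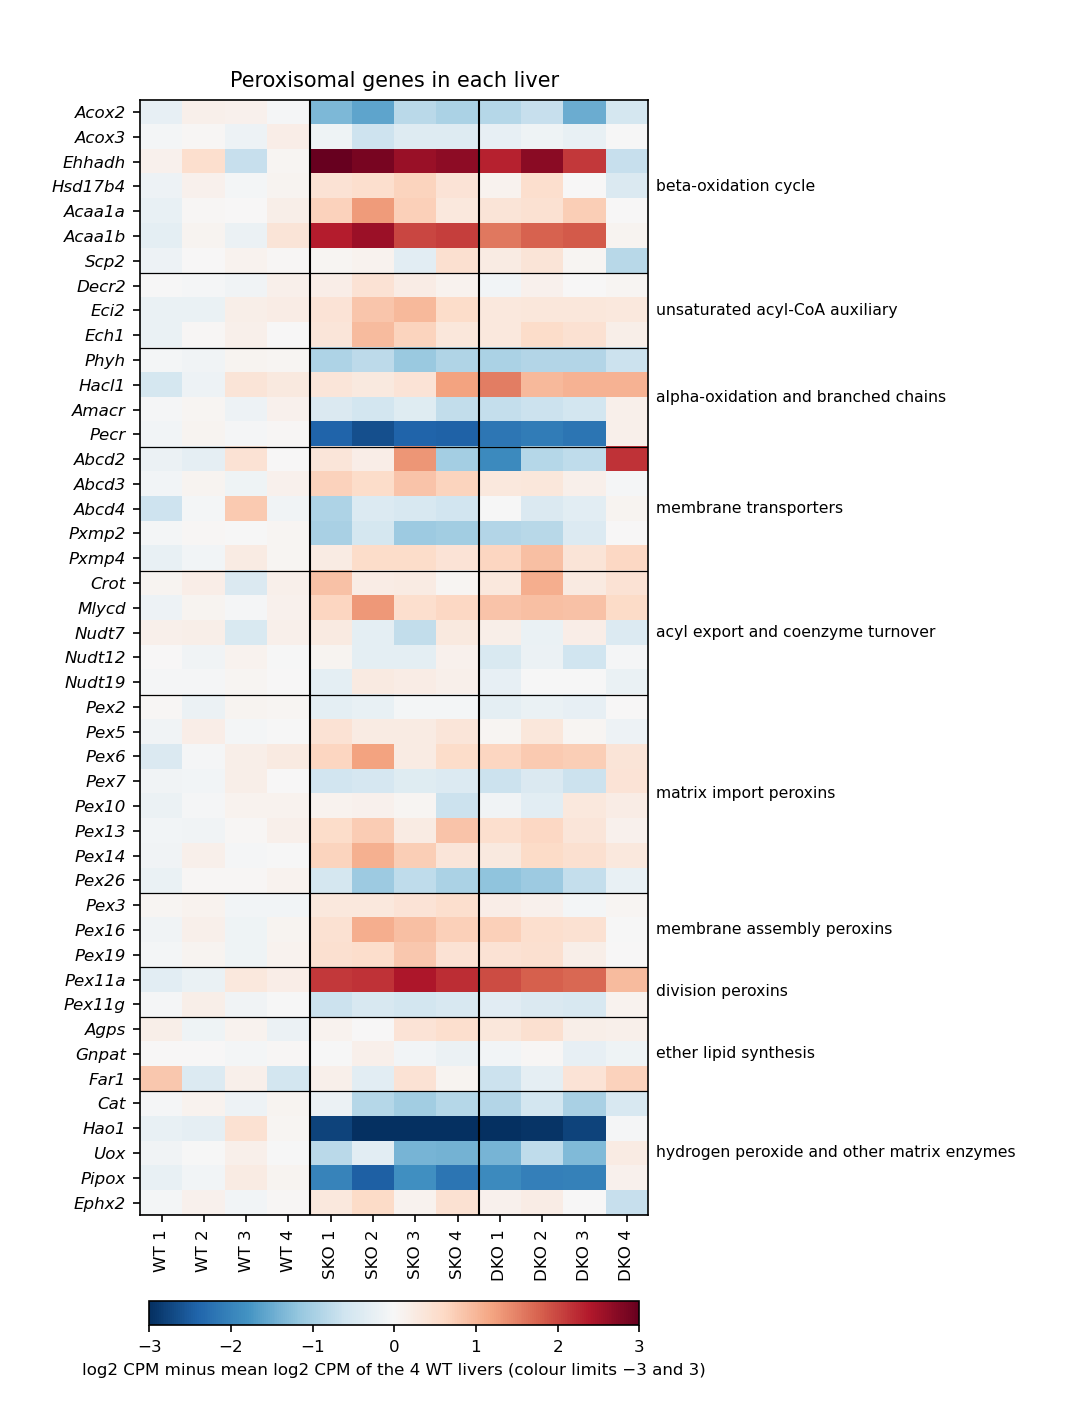
Level of each of the 45 genes in each of the 12 livers as log2 CPM minus the mean log2 CPM of the 4 WT livers, grouped by role, with colours limited to the range -3 to 3. The SKO livers and DKO replicates 1 to 3 share strong red rows for Ehhadh, Acaa1b and Pex11a and strong blue rows for Pecr, Hao1 and Pipox, and DKO replicate 4 is pale in all of these rows except Pex11a and, in the opposite sense, Ehhadh.

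The comparison of DKO with WT livers asked what the loss of both genes does, and it shares its 4 WT livers with the comparison of SKO with WT. With all 4 DKO livers, edgeR called 7 of the 45 members higher and 3 lower over 14448 genes tested, where 6.06% of all genes were higher and 4.39% lower. The groups did not overlap for 9 members above and 4 below WT, against 7.72% and 9.05% of all genes. At an unadjusted p under 0.05 the counts were 15 and 7, against 16.6% and 12.8% of all genes. The median log2 fold change was 0.04 over the members and 0.03 over all genes. Higher were Acaa1b, Hacl1, Pxmp4, Mlycd, Pex6, Pex14 and Pex11a, and lower were Acox2, Phyh and Cat.

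These counts depend on DKO replicate 4. Without it, 14 members were higher and 14 lower by edgeR, against 18.4% and 17.5% of 14634 genes, and all 10 members called with it were among the 28. At an unadjusted p under 0.05 that fit gave 17 and 15, against 23.1% and 22.1% of all genes. Leaving out any other single liver left 3 to 5 members called, while the share of all genes called fell to 0.828% to 2.43% higher and 0.802% to 2.38% lower. Of the 10, Mlycd and Pex11a were called in each of these 8 fits. Acaa1b, Acox2, Cat, Pex6 and Pex14 lost their call in all 7 fits that kept DKO replicate 4 and left out another liver, with edgeR adjusted p of 0.0574 to 0.126. Pxmp4 lost it in 6 (0.0501 to 0.0979), and Phyh without WT replicate 4 (0.0516) or DKO replicate 1 (0.0502). With all 12 livers in 1 fit, Pex6 (adjusted p = 0.0663) and Pex14 (0.0807) were not called by edgeR either. Without the filter on low counts Pex14 was not called (0.0862).

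Pex11a was at 685, 610.0, 587 and 341 CPM in DKO replicates 1 to 4. All 4, DKO replicate 4 included, lay above the WT livers (log2 fold change 1.64 ± 0.24, adjusted p = 0.00892, edgeR). Without DKO replicate 4 it was 1.81 ± 0.16, adjusted p = 1.37e-05. Acaa1b was at 4697, 5402, 5608 and 1674 CPM, so that DKO replicate 4 fell inside the WT range. Its log2 fold change was 1.45 ± 0.35, adjusted p = 0.033 by edgeR with all DKO livers and 1.71 ± 0.16, adjusted p = 1.95e-05 without DKO replicate 4. Ehhadh was at 7768, 10223, 6846 and 967 CPM, with DKO replicate 4 just below every WT liver. With all 4 DKO livers edgeR did not call it (log2 fold change 1.99 ± 0.58, adjusted p = 0.0565), while DESeq2 did (1.97, adjusted p = 0.00242), as did edgeR without the filter on low counts (0.0207) and with all 12 livers in 1 fit (0.0242). By edgeR it was 2.34 ± 0.24, adjusted p = 3.36e-05 without DKO replicate 4.

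Hacl1 was at 97.4, 65.8, 69.3 and 69.4 CPM, all above WT, and DKO replicate 4 did not stand apart. Its log2 fold change was 1.14 ± 0.22, adjusted p = 0.0176 (edgeR) and 1.17 ± 0.21, adjusted p = 0.00148 without DKO replicate 4. The overlapping Btd was higher in the same comparison by 0.47 ± 0.12 (edgeR adjusted p = 0.0369), and by 0.49 ± 0.11 (0.00586) without DKO replicate 4. The Hacl1 call was lost without WT replicate 1 (adjusted p = 0.0509), WT replicate 2 (0.0639) or DKO replicate 3 (0.0515).

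Hao1, Pecr and Pipox were called by edgeR without DKO replicate 4 and not with it, and DESeq2 gave no p for Hao1 and Pecr. Hao1 was at 18.3, 19 and 21.2 CPM in DKO replicates 1 to 3 and at 141 CPM in DKO replicate 4. The first 3 lay far below the WT livers and the last inside their range. By edgeR the log2 fold change was -1.55 ± 0.66, adjusted p = 0.151 with it and -2.92 ± 0.19, adjusted p = 1.46e-06 without it. Pecr was at 42.3, 44.8 and 41.8 CPM and, in DKO replicate 4, at 211 CPM, above every WT liver. Its edgeR log2 fold change was -1.15 ± 0.52, adjusted p = 0.172 with it and -2.15 ± 0.10, adjusted p = 2.88e-07 without it. Pipox was at 77.8, 70.9 and 71.7 CPM and, in DKO replicate 4, at 322 CPM, within WT. It went from -1.11 ± 0.49, adjusted p = 0.162 to -2.01 ± 0.14, adjusted p = 1.98e-06 (edgeR).

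Acox2 was at 159.5, 179.7, 102 and 200.1 CPM in DKO livers, all below the WT livers, DKO replicate 4 nearest to them (log2 fold change -0.84 ± 0.20, adjusted p = 0.0324, edgeR, and -0.98 ± 0.18, adjusted p = 0.00158 without it). Phyh at -0.82 ± 0.15, adjusted p = 0.0146 and Cat at -0.69 ± 0.17, adjusted p = 0.0334 were likewise called with all 4 livers, and no DKO liver overlapped WT for either gene. They were at -0.90 ± 0.11 and -0.78 ± 0.13 without DKO replicate 4. Among the uncalled members, Scp2 was at 4494, 4929, 3965 and 2109 CPM, DKO replicate 4 being the lowest of all 12 livers, and its log2 fold change was 0.04 ± 0.25, adjusted p = 0.927 (edgeR), or 0.24 ± 0.12, adjusted p = 0.141 without that liver. Abcd3 was at 1018, 1030.5, 901 and 795 CPM (log2 fold change 0.21 ± 0.14, adjusted p = 0.359) and Abcd4 at 22.4, 16.7, 18 and 23.8 CPM (-0.22 ± 0.27, adjusted p = 0.619). Without DKO replicate 4 these were 0.27 ± 0.11 and -0.32 ± 0.27, neither called.

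By role, with all 4 DKO livers, 1 of 7 cycle enzymes was higher and 1 lower, and the α-oxidation genes had 1 in each direction. Leaving out DKO replicate 4, the cycle had 3 higher and 1 lower and the 4 α-oxidation genes 1 and 3, Amacr (-0.63 ± 0.11, adjusted p = 0.001, edgeR) being lower beside Phyh and Pecr. The 5 hydrogen peroxide and other matrix enzymes went from 1 lower to 4 lower, and the 5 membrane transporters from 1 higher to 1 higher and 2 lower. The 5 genes for acyl export and coenzyme turnover went from 1 higher to 2 higher and 1 lower. There Crot was called higher beside Mlycd, and Nudt12 lower. Of the 13 peroxins 3 were higher and none lower, the third beside Pex11a and Pex14 being Pex6 (log2 fold change 0.64 ± 0.17, adjusted p = 0.0423, edgeR, and 0.71 ± 0.15 without DKO replicate 4). In the fit without that liver 6 of the 13 were higher (Pex6, Pex11a, Pex13, Pex14, Pex16 and Pex19) and 3 lower (Pex7, Pex26 and Pex11g). With all 4 DKO livers none of the auxiliary, membrane assembly or ether lipid genes was called by edgeR, while DESeq2 called Ech1 higher (0.37, adjusted p = 0.031). Pex26 missed the threshold by edgeR (-0.74 ± 0.21, adjusted p = 0.0507) although all DKO livers lay below WT, and DESeq2 called it lower (adjusted p = 0.0123). Pex13 was likewise called by DESeq2 (0.40, adjusted p = 0.0345) and not by edgeR (0.42 ± 0.13, adjusted p = 0.0641). Without DKO replicate 4 Pex26 was called by edgeR (-0.99 ± 0.14, adjusted p = 0.00024), as were Uox (-1.14 ± 0.16, adjusted p = 0.000233) and Acaa1a (0.53 ± 0.13, adjusted p = 0.00905). The auxiliary gene Ech1 (0.44 ± 0.11, adjusted p = 0.0114) and the membrane assembly genes Pex16 (0.56 ± 0.12, adjusted p = 0.00324) and Pex19 (0.36 ± 0.11, adjusted p = 0.027) were called there too, while no ether lipid gene was.

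Abcd2, a transporter for very long-chain acyl-CoAs, is named here after its values were seen. It was at 18, 17, 27.7 and 20.8 CPM in WT, 26.3, 23.5, 51.9 and 10.1 CPM in SKO and 5.35, 11.3, 12.1 and 92.8 CPM in DKO livers. The highest level of all was in DKO replicate 4, and the highest SKO level in SKO replicate 3, the 2 livers with Xist counts. With all livers its log2 fold change in DKO against WT was 0.56 ± 0.76, adjusted p = 0.661 (edgeR), and without DKO replicate 4 it was -1.12 ± 0.27, adjusted p = 0.00723, which turns the direction and makes a call.

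**Figure D4:**
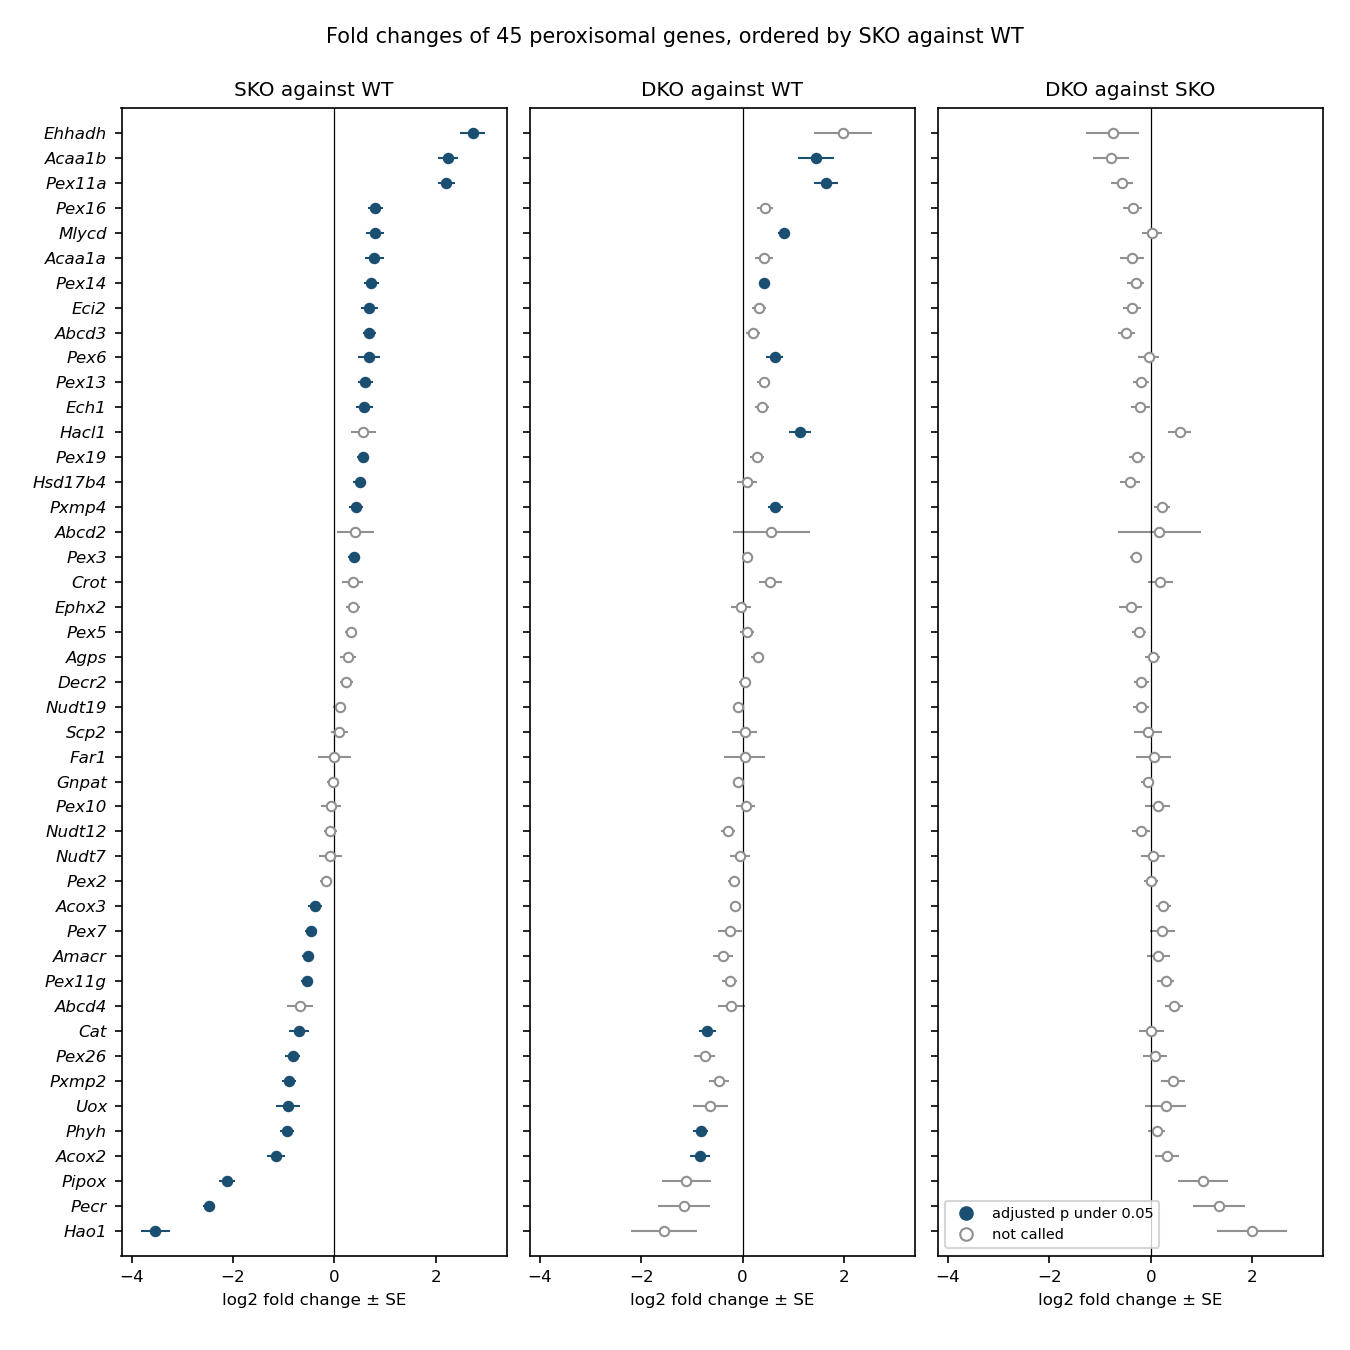
Log2 fold change ± SE (edgeR) of the 45 genes in the 3 comparisons with all 12 livers kept, ordered by SKO against WT; filled points have an adjusted p under 0.05. In SKO against WT 29 points are filled, in DKO against WT 10 and in DKO against SKO none, and Hao1, Pecr, Pipox and Ehhadh have longer error bars in both DKO panels than in the first.

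The DKO livers were compared with the SKO livers to see what deleting Atf3 adds to the loss of Cpt2. None of the 45 members was called among 14363 genes tested by edgeR, where 0.00696% of all genes were higher and 0.0139% lower, and DESeq2 called none of those it gave a p for, where it called 0.466% of all genes higher and 0.209% lower. Hao1 and Pecr had no p from DESeq2, so they were tested by edgeR alone. At an unadjusted p under 0.05, 4 members were higher and 4 lower by edgeR, where 4.11% and 2.38% of all genes were, and DESeq2 gave 3 and 6, where 4.14% and 2.85% of all genes were. The groups did not overlap for 2 members above, Pecr and Pex11g, and 5 below, Acaa1b, Eci2, Abcd3, Pex3 and Pex11a, against 2.08% and 1.86% of all genes. The smallest adjusted p was 0.633, and the median log2 fold change was 0.01 over the members and over all genes.

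The 6 members with the smallest p were Hao1, Abcd3, Pex11a, Pecr, Abcd4 and Hacl1. Hao1 had the largest value (log2 fold change 2.00 ± 0.69, adjusted p = 0.633, edgeR), and without DKO replicate 4 it was 0.61 ± 0.27, adjusted p = 0.668. Pecr went likewise from 1.35 ± 0.52 to 0.33 ± 0.13, adjusted p = 0.623 (edgeR). Even so, DKO replicates 1 to 3 at 42.3, 44.8 and 41.8 CPM lay above every SKO liver, the highest of which was at 35.9 CPM.

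Abcd3 was lower in every DKO liver than in the lowest SKO liver, with a log2 fold change of -0.48 ± 0.17, adjusted p = 0.664 (edgeR), and of -0.42 ± 0.17, adjusted p = 0.61 without DKO replicate 4. Pex11a was also below all SKO livers in all 4 DKO livers, at -0.57 ± 0.22, adjusted p = 0.701 (edgeR), and at -0.40 ± 0.17, adjusted p = 0.626 without DKO replicate 4. Acaa1b had the same order (-0.79 ± 0.35, adjusted p = 0.756 and -0.52 ± 0.20, adjusted p = 0.591), and the DKO livers kept a level between WT and SKO in the 3 livers other than DKO replicate 4. Hacl1 had the opposite sign, at 0.58 ± 0.23, adjusted p = 0.717 and 0.60 ± 0.24, adjusted p = 0.608 without it, and Abcd4 was at 0.46 ± 0.18, adjusted p = 0.717 with overlapping livers and 0.35 ± 0.18 without it. None of these differences passed the test, with SE of 0.17 to 0.69 on the log2 scale among these 7 genes, which does not show that DKO and SKO livers are alike. The SE of Hao1 was 0.69 with DKO replicate 4 and 0.27 without it.

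Without DKO replicate 4 the members' median was -0.11, with 27 of 45 values below 0, and the median over all genes was -0.0045. No member was called by edgeR in that fit either, among 14589 genes of which 0.0617% were higher and 0.0411% lower, and the smallest adjusted p was 0.416, of Abcd2. At an unadjusted p under 0.05 it gave 7 members, 3 higher and 4 lower, against 3.77% and 3.45% of all genes.

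Other peroxisomal genes outside the 45 were counted in the same way. Of 32 listed, 31 were in the table and 29 were tested. In SKO against WT 6 were higher and 9 lower by edgeR, where 16.7% and 15.4% of all genes were. In DKO against WT the counts were 1 and 2, where 6.06% and 4.39% of all genes were called, and in DKO against SKO none was called. The counts without DKO replicate 4 were 5 and 6 in DKO against WT, beside 18.4% and 17.5% of all genes, and again none in DKO against SKO. The genes named next were chosen after their values were seen. Crat, the carnitine acetyltransferase, rose by 1.63 ± 0.16 on the log2 scale (edgeR adjusted p = 2.22e-05) in SKO livers. Baat, which conjugates bile acids, fell by 1.26 (adjusted p = 0.000339).

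Ppara itself was at 219 ± 43.2 CPM in WT, 257 ± 80.2 CPM in SKO and 181 ± 40.4 CPM in DKO livers (SD, n = 4). It was called in none of the comparisons by edgeR, with adjusted p of 0.476 in SKO against WT, 0.406 in DKO against WT and 0.792 in DKO against SKO. The last 2 were 0.23 and 0.715 without DKO replicate 4. The 4 livers of each group overlapped those of the others.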

How the data were processed

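RNA-seq libraries of 12 fasted mouse livers, 4 per genotype, were analysed from the raw counts per gene that the authors deposited, beside the FPKM the authors computed from them, which equal count over gene length times 1 factor per liver (0.886 to 1.17). The submitters' processing notes name HISAT2 and GRCm38 (mm10), and the counter and strandedness are not given in the sources used here. None of the 45 members had the start and end of the GENCODE M21 annotation of GRCm38, so file coordinates are not printed. Columns of the authors' own comparisons (fold changes and p-values) were not used.

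CPM used TMM factors over the 12 livers, and log2 CPM a prior count of 2. Each pair of groups (8 livers) was fitted with edgeR 4.0.16 (filterByExpr, TMM, quasi-likelihood F-test, 2-sided) in R 4.3.3, and p-values were adjusted by Benjamini-Hochberg over all genes tested. All 45 members passed the filter in all 3 comparisons. SE is the log2 fold change divided by the root of F. Alternatives were DESeq2 1.42.0, RLE factors, no filter, all 12 livers in 1 fit, a replicate block, and leaving out livers. For gene lists, role counts and neighbouring genes, leaving out DKO replicate 4 was chosen after seeing the data. The scripts were tested on simulated counts. No pair of libraries was a copy, since chi-square over degrees of freedom was at least 20.6 for each of the 66 pairs of livers.

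Values in every liver are given for members called with a log2 fold change of at least 1 in SKO or DKO against WT, the 6 smallest p in DKO against SKO, and the 3 highest mean FPKM. Further members are examples of their role, and all 45 are accounted for. The members, roles and other lists were chosen with earlier results of these data known.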

Additional observations from a re-analysis of the deposited data

Results flagged for a closer look

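In each genotype the level of each member was checked for a liver far from the other 3 by Dixon's test. Of 135 groups of 4 livers 14 held such a liver, where chance flags about 1 in 20 groups, or 6.75. DKO replicate 4 accounted for 6 of the 14, always above the other 3 DKO livers. It held 141 CPM of Hao1, where the others held 18.3 to 21.2 CPM, 211 CPM of Pecr (others 41.8 to 44.8), and 322 CPM of Pipox (others 70.9 to 77.8). It also held 92.8 CPM of Abcd2 (others 5.35 to 12.1), 169.9 CPM of Amacr (others 92.9 to 104), and 93.8 CPM of Pex7 (others 44.9 to 52.1). This liver also had Xist counts, no Y-linked counts, 5 Atf3 counts and summed hepatocyte markers of 113110 CPM, and the part of these in the 6 values was not tested. In the other direction, its Ehhadh, Acaa1b and Scp2 levels were the lowest of the DKO livers without passing this test.

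The other 8 were spread over genes and livers. In the SKO group, replicate 4 had 77.4 CPM of Hacl1 (others 40.8 to 44.8) and 4.94 CPM of Pex10 (others 8.11 to 8.49). SKO replicate 2 had 30.3 CPM of Pecr (others 35.4 to 35.9), 72.8 CPM of Pxmp2 (others 49.6 to 53.5) and 272 CPM of Mlycd (others 154 to 170.5). DKO replicate 1 had 97.4 CPM of Hacl1 (others 65.8 to 69.4) and DKO replicate 2 had 1593 CPM of Crot (others 909 to 1013). WT replicate 3 had 122 CPM of Nudt7 (others 185 to 188).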

How the results depend on the processing

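In SKO against WT the members called higher numbered 12 to 18 and lower 11 to 14 over all 14 alternatives, where 8.98% to 17.3% and 8.22% to 17.1% of all genes were called, and the median 0.17 to 0.27 on leaving out 1 liver, 0.17 without SKO replicate 2. In DKO against WT, 7 higher and 3 lower became 14 and 14 without the livers with Xist counts, and 2 to 14 and 0 to 14 on leaving out 1 liver. The 14 and 14 come from the fit without DKO replicate 4, and 14 members were called by DESeq2 (10 higher, 4 lower, against 9.66% and 8.58% of all genes). In DKO against SKO no alternative called a member. The median there was -0.096 without the livers with Xist counts and -0.11 to 0.015 on leaving out 1 liver. Some values turned sign, and the cause was not tested. With all livers Abcd2 was 0.42 in SKO against WT, 0.56 in DKO against WT and 0.17 in DKO against SKO. Without DKO replicate 4 it was called lower in DKO against WT (edgeR adjusted p = 0.00723). Abcd2 in SKO against WT was -0.065 without the livers with Xist counts and -0.065 to 0.70 on leaving out 1 liver. Abcd2 was -1.12 in DKO against WT and -1.05 in DKO against SKO without the livers with Xist counts, and -1.12 to 0.92 and -1.55 to 0.65 on leaving out 1 liver. Scp2 was 0.024 in DKO against SKO without the livers with Xist counts, and on leaving out 1 liver -0.039 to 0.22, -0.081 to 0.24 and -0.18 to 0.14 in the 3 comparisons.

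The labels number the livers 1 to 4 in each group, and same-numbered livers did not deviate together (correlations -0.34 to 0.089). With 4 livers per group this cannot exclude that same-numbered livers shared a litter or a day. With a replicate block, DKO against WT had 3 higher and 2 lower members (2.3% and 2.48% of all genes), Scp2 was -0.017 and Abcd2 -0.40, and Abcd2 in DKO against SKO was -0.87. In DKO against WT the block lost the edgeR calls of Acaa1b (adjusted p = 0.0989), Acox2 (0.0657), Cat (0.0723), Pex6 (0.081), Pex14 (0.0734) and Pxmp4 (0.0765). In SKO against WT the block called 16 and 13 members (14.6% and 14.3% of all genes), but not the same ones: Acox3 (adjusted p = 0.0775) and Pex3 (0.0542) lost their calls by edgeR.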

Other observations

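PPARα targets that are not among the 45 members were counted too. Of 25 such genes, mostly of mitochondrial and microsomal fatty acid handling, 17 were higher and 0 lower in SKO against WT by edgeR, where 16.7% and 15.4% of all genes were, and 8 higher and 0 lower in DKO against WT, where 6.06% and 4.39% were. The latter counts were 14 and 1 without DKO replicate 4, where 18.4% and 17.5% of all genes were called. The list was chosen with earlier results of these data known, and 13 of the 45 peroxisomal members were lower in SKO livers. None was called in DKO against SKO, where their median log2 fold change was -0.29, or -0.22 without DKO replicate 4. The genes named next were chosen after their values were seen. Pdk4, the kinase that holds back pyruvate oxidation, was at 7.95 ± 3.11 CPM in WT and 740.4 ± 176 CPM in SKO livers (SD, n = 4; log2 fold change 6.54 ± 0.31, edgeR adjusted p = 2.88e-07). Aldh3a2, a fatty aldehyde dehydrogenase, was at 640 ± 67.0 CPM in WT and 2256 ± 234 CPM in SKO livers (1.82 ± 0.14, adjusted p = 6.4e-06). The summed level of the 25 genes was 22606 to 27464 CPM in WT, 37458 to 46055 CPM in SKO, 34817 to 45245 CPM in DKO replicates 1 to 3 and 22748 CPM in DKO replicate 4.

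Among the regulators measured, Pparg, a receptor related to PPARα, was higher in SKO than in WT livers (22.5 ± 2.18 against 8.04 ± 0.59 CPM, SD, n = 4, edgeR adjusted p = 1.95e-05). Rxra, the partner receptor of both, was lower (477 ± 74.3 against 734 ± 63.0 CPM, adjusted p = 0.00677). In DKO against WT they had adjusted p of 0.00636 and 0.0467 in the same directions, and of 1.51e-05 and 0.000362 without DKO replicate 4, all by edgeR.

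Markers of the other cell types checked were 180.6 to 240 CPM in SKO and 138 to 298 CPM in WT livers for 5 endothelial genes, none of them called. For 6 stellate cell genes they were 225 to 318 CPM in SKO and 163 to 195 CPM in WT, with 1 gene higher. For 4 erythroid genes they were 145 to 491 CPM in SKO and 69.1 to 194 CPM in WT, with 2 of the 3 genes tested higher. Over all genes tested 16.7% were called higher in SKO against WT by edgeR. The lymphocyte genes summed to 0.879 to 3.89 CPM and the neutrophil genes to 0.386 to 1.66 CPM over the 12 livers.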
